A study of Mus musculus with 6 samples.

Results

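Lin28a, Lin28b, Hmga2, Igf2bp1, Igf2bp2, Igf2bp3 and Trim71 are the mouse genes of the LIN28, HMGA2 and IGF2BP axis around the microRNA family let-7. They are 7 of the 24318 gene rows of the table and were taken by gene symbol. They were selected on their FPKM in these same libraries, with the difference between the groups already known, so that difference is given below as a description. CAD cells are a catecholaminergic line of mouse neuronal origin. In the siCircGigyf2 group (3 libraries) an siRNA targeted circGigyf2, the circle back-spliced from Gigyf2 transcripts, and in the siNC group (3 libraries) the cells had a control siRNA labelled NC. All 6 libraries were total RNA depleted of ribosomal RNA, from a single cell line, and no source used here gives the dose or duration of the siRNA treatment. The values are FPKM, fragments scaled by transcript length and by the mapped total of the library.

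LIN28A and LIN28B are RNA-binding proteins with a cold-shock domain and zinc knuckles that bind the let-7 precursor and block its maturation. In turn, let-7 binds the 3′ UTRs of their mRNAs and of Hmga2, the Igf2bp genes and Trim71. LIN28 and let-7 thus form a mutually repressive loop. HMGA2 is an architectural chromatin protein of proliferating embryonic cells, the IGF2BP proteins are oncofetal binders of mRNA, and TRIM71 is the ubiquitin ligase known as LIN41 in the nematode. High LIN28 marks embryonic and neural crest-derived tumour cells, and let-7 rises as neurons differentiate.

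The sequences that tie the genes together are the let-7 seed and its matches. RefSeq (build GRCm38.p6) lists 10 distinct mature let-7 and miR-98 sequences with the same seed, bases 2 to 8, GAGGUAG, whereas let-7j and miR-202-3p carry GAGGUAU. Shown here are 5 members that differ outside the seed, which is in capitals, 5′ to 3′:
mmu-let-7a-5p: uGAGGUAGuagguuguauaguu
mmu-let-7d-5p: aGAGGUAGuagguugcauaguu
mmu-let-7e-5p: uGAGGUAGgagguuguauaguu
mmu-let-7i-5p: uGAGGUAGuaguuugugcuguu
mmu-miR-98-5p: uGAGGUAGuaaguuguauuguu

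A match to this seed in a 3′ UTR was called an 8mer where it read CTACCTCA, a 7mer-m8 where it read CTACCTC without the final A, and a 7mer-A1 where it read TACCTCA without the leading C. The 3 kinds were counted without overlap, on the sense strand of the transcript with the longest coding sequence in GENCODE M21 (build GRCm38). All 7 genes held at least 1 8mer. Of the 4893 annotated 3′ UTRs within the range of lengths of these genes, 5.93% held an 8mer, and of all 20539 the share was 2.67%. The genes are established let-7 targets, so the matches describe them and are no result of the siRNA experiment. For each gene the first 8mer after the stop codon is shown as the last 8 letters, in capitals, of a 30-base window, 5′ to 3′, on the minus strand of GRCm38:
Lin28a, chr4:134005189-134005218: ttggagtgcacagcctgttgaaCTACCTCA
Lin28b, chr10:45381022-45381051: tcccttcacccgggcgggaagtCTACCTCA
Hmga2, chr10:120364224-120364253: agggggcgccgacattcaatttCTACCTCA
Igf2bp1, chr11:95961778-95961807: aggcagtgctgtgcgaagtaaaCTACCTCA
Igf2bp2, chr16:22059473-22059502: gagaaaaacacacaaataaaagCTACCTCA
Igf2bp3, chr6:49086787-49086816: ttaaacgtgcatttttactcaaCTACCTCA
Trim71, chr9:114512472-114512501: aaagtacaacattgcctaagtcCTACCTCA

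Hmga2 had the densest sites, 7 in a 3′ UTR of 3014 bases (1 8mer, 3 7mer-m8 and 3 7mer-A1). Only 3 of the 20539 genes, Hmga2 included, had at least as many. Trim71 held 6 sites in 5512 bases, 4 of them 8mers, and Igf2bp1 5 sites in 6337 bases, 3 of them 8mers. Lin28b held 5 in 4445 bases, with its 8mer starting 36 bases into the 3′ UTR, and Lin28a 2 8mers in 2775 bases. Igf2bp2 held 2 in 1784 bases and Igf2bp3 a lone 8mer in 2119 bases. The number of sites did not order the genes by level. Lin28b, with 5 sites, had the highest FPKM, and Igf2bp1, also with 5, was listed at 0.

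**Figure D1:**
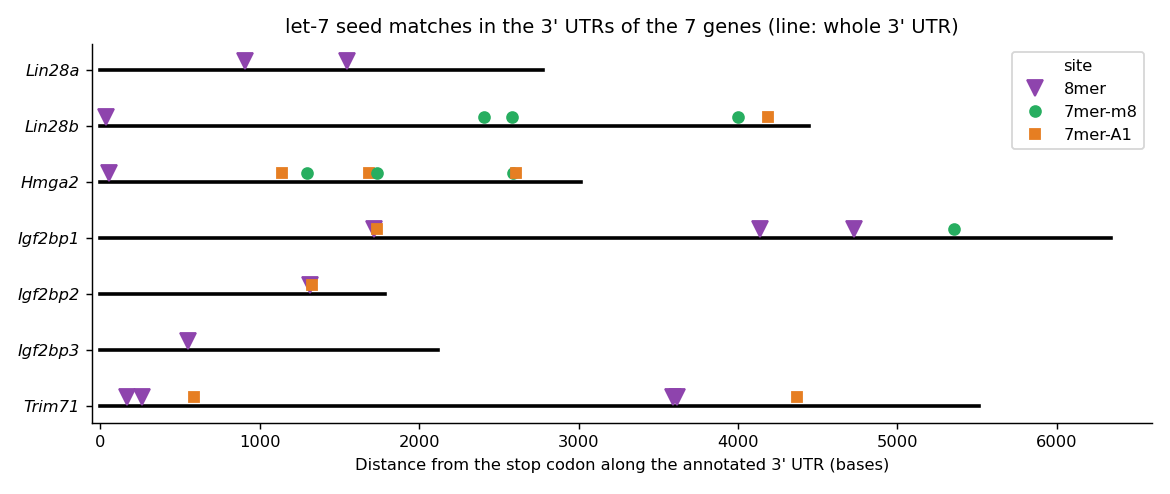
Position of each let-7 seed match along the annotated 3′ UTR of the 7 genes, in bases from the stop codon, with the whole 3′ UTR as a line and the kind of site as the symbol. Hmga2 carries 7 matches and Igf2bp3 only 1, and the first matches of Lin28b and Hmga2 lie close to the stop codon.

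The labelled cell type was checked against its markers. Of 12 markers of CAD cells, 11 averaged at least 1 FPKM (Ddc did not), and their summed FPKM was 1577 to 1625 in the siCircGigyf2 libraries and 1610 to 1643 in the siNC libraries. Chgb alone averaged 1030 FPKM, so the sum says little of the others. The catecholamine synthesis genes among these markers were low. Th averaged 3.76, Dbh 1.45 and Ddc 0.333 FPKM over the 6 libraries. The count of markers at 1 FPKM or more thus does not by itself establish a catecholaminergic identity. Of the 11 tested, 3 were called higher (Tubb3, Slc18a1 and Hand2, log2 differences 0.55, 0.33 and 0.18) and 4 lower. Those lower were Dbh, Phox2a, Chgb and Chga, at -0.37, -0.20, -0.14 and -0.12. That is 63.6% called, where 38.2% of all genes tested were called. Markers of pluripotent or germ cells, which also hold Lin28, summed to 0.497 to 0.562 FPKM with siCircGigyf2 and 0.293 to 0.963 FPKM with siNC, and Zfp42 was listed at 0 in all 6. The 3 astrocyte markers summed to at most 0.0555 and 0.0676 FPKM in these groups, the 3 microglial markers to at most 0.304 and 0.208, and the 3 oligodendrocyte markers to at most 1.19 and 1.10. Endothelial markers came almost wholly from Pecam1 (summed FPKM up to 7.13 and 6.87). Fibroblast markers summed to 3.18 to 3.44 and 2.71 to 3.10 FPKM, with Col1a1 higher in the siCircGigyf2 libraries (log2 difference 0.36, limma adjusted p = 0.018, but 0.059 without siCircGigyf2 replicate 1 and 0.0602 without siNC replicate 2). Pdgfra was lower in all 3 siCircGigyf2 libraries without passing (log2 difference -0.098), and Col3a1 was listed at 0. The part of the Col1a1 difference in the results below was not tested. The number of fragments was not given, but the step between low values gave depths relative to siNC replicate 1 of 0.802 to 0.914 for siCircGigyf2 and of 0.980 and 0.953 for siNC replicates 2 and 3. A table of FPKM per gene does not separate the circle from linear Gigyf2, so the knockdown could not be checked here.

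Most of the summed FPKM of the 7 genes came from the LIN28 pair. Lin28b and Lin28a ranked 3391 and 4344 by mean FPKM among all rows, and together made up 94.3% to 95.1% of the summed FPKM of the 7 genes in the siCircGigyf2 libraries and 92.6% to 93.6% in the siNC libraries. Igf2bp3 ranked 10930 and Trim71 11563, followed by Igf2bp2 (13261) and Hmga2 (13359). Only Lin28a, Lin28b and Igf2bp3 reached the mean of 1 FPKM required for the test across genes. Igf2bp3 lay just above that limit at 1.47 FPKM and Trim71 just below it at 0.882 FPKM, while Igf2bp2 and Hmga2 averaged 0.181 and 0.165 FPKM over the 6 libraries.

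Lin28b was the member with the largest difference among the 3 that could be tested. It had 28.6, 26.2 and 27.3 FPKM in siCircGigyf2 replicates 1 to 3, against 20.9, 20.7 and 21.2 FPKM in siNC replicates 1 to 3. Every siCircGigyf2 library lay above every siNC library. The means were 27.4 ± 1.17 and 20.9 ± 0.263 FPKM (SD, n = 3 each), a ratio of 1.31 and a difference of 0.37 on the log2(FPKM + 1) scale (SE 0.039). In bulk samples a change in the share of cells that hold an RNA and a change in the amount per cell cannot be told apart.

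Lin28a, the paralog with the same cold-shock and zinc-knuckle domains, did not follow. It had 18.2, 17.9 and 18.97 FPKM in the siCircGigyf2 libraries, against 18.8, 18.5 and 17.9 FPKM in the siNC libraries. These values overlapped, and the means of 18.4 ± 0.546 and 18.4 ± 0.445 FPKM (SD, n = 3 each) differed by -0.0012 on the log2 scale (SE 0.039), with the sign changing between -0.023 and 0.016 as single libraries were left out. The ratio of Lin28b to Lin28a within a library, which no scaling of libraries can alter, was 1.57, 1.47 and 1.44 with siCircGigyf2, against 1.11, 1.12 and 1.19 with siNC. All 3 siCircGigyf2 ratios exceeded all 3 siNC ratios, with means of 1.49 ± 0.0673 and 1.14 ± 0.0406 (SD, n = 3 each). The pair summed to 45.8 ± 1.42 FPKM with siCircGigyf2 and 39.3 ± 0.273 FPKM with siNC.

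**Figure D2:**
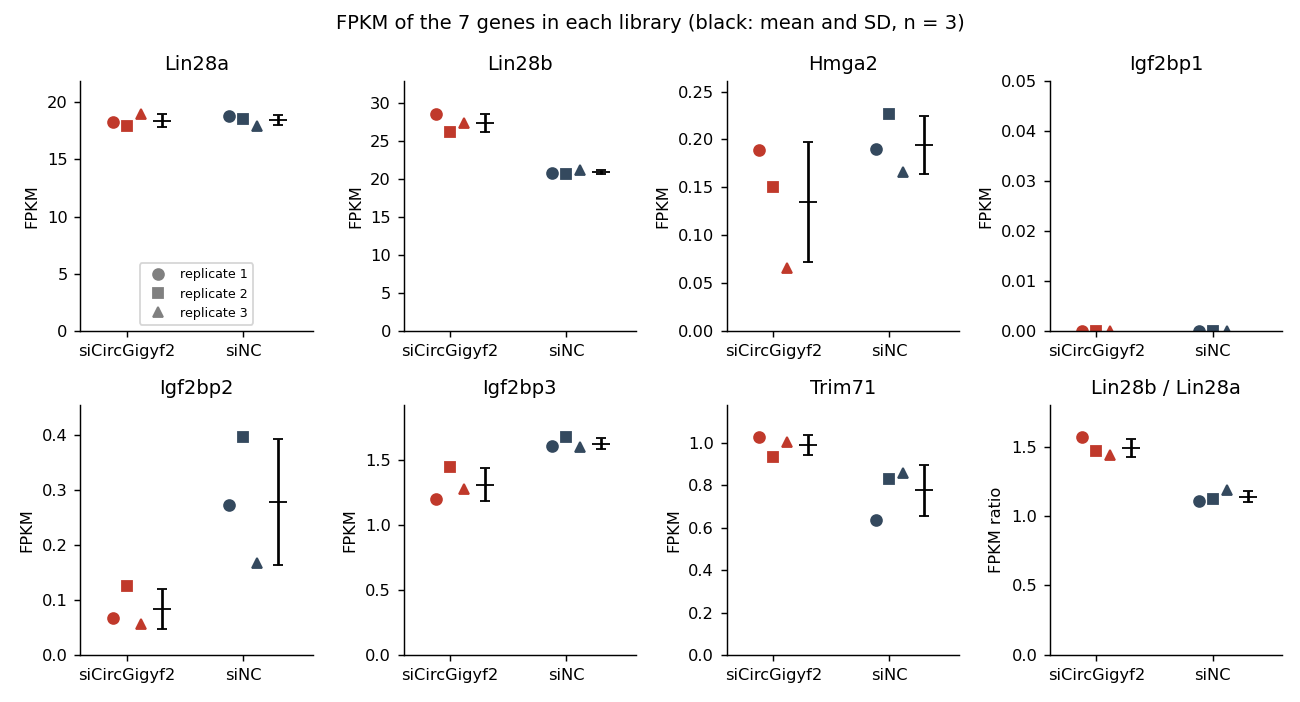
FPKM of each of the 7 genes, and the within-library ratio of Lin28b to Lin28a, in the siCircGigyf2 (left) and siNC (right) libraries, with symbols for the replicate and black bars for the mean and SD (n = 3). Lin28b and Trim71 lie higher, and Igf2bp2 and Igf2bp3 lower, in all 3 siCircGigyf2 libraries, while Lin28a and Hmga2 overlap and Igf2bp1 is at 0.

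Trim71, the ubiquitin ligase, had 1.03, 0.936 and 1.00 FPKM in the siCircGigyf2 libraries, against 0.636, 0.831 and 0.860 FPKM in the siNC libraries. All 3 siCircGigyf2 values were above the siNC values, at means of 0.989 ± 0.0472 and 0.776 ± 0.122 FPKM (SD, n = 3 each) and a ratio of 1.27. Its log2 difference was 0.17 (SE 0.063), or 0.32 with a pseudocount of 0.1, and 0.11 without siNC replicate 1.

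Igf2bp3, the IGF2BP paralog with the highest FPKM here, had 1.204, 1.45 and 1.28 FPKM with siCircGigyf2, against 1.61, 1.68 and 1.602 FPKM with siNC. The siCircGigyf2 values were all lower, at means of 1.31 ± 0.127 and 1.63 ± 0.0415 FPKM (SD, n = 3 each), a ratio of 0.804. The log2 difference was -0.19 (SE 0.081), or -0.30 with a pseudocount of 0.1. In GENCODE M21 its exons overlap those of Malsu1 on the opposite strand. Strand handling was not given in the sources used here, so fragments of the overlap cannot be assigned with certainty. Malsu1, a mitochondrial ribosome assembly factor, averaged 28.8 ± 2.58 and 26.98 ± 1.64 FPKM (SD, n = 3 each), a log2 difference of 0.09 with overlapping groups. Trim71, Hmga2, Igf2bp1 and Lin28a also overlap annotated exons on the opposite strand, of genes with no row in the table.

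Igf2bp2, whose gene is known to be activated by HMGA2, had 0.0677, 0.125 and 0.0568 FPKM with siCircGigyf2, against 0.273, 0.395 and 0.167 FPKM with siNC. The groups did not overlap, and the means were 0.0830 ± 0.0364 and 0.278 ± 0.114 FPKM (SD, n = 3 each), a ratio of 0.298. Scaled for relative depth, the 6 values were whole multiples of a common step to within 0.1 of a step. They came to 5, 10 and 4 steps with siCircGigyf2 and 24, 34 and 14 with siNC. The match in siCircGigyf2 replicate 3, the lowest value, was exact, as it was for Hmga2 below. It would be so if the step were set from that value, so it is no separate check. If a step is a single fragment, the difference rests on 19 against 72 fragments. The log2(FPKM + 1) difference of -0.24 (SE 0.066) understates a change at so low a level, and was -1.02 with a pseudocount of 0.1.

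Hmga2 had 0.189, 0.150 and 0.0659 FPKM with siCircGigyf2, against 0.190, 0.227 and 0.166 FPKM with siNC. The values overlapped, with means of 0.135 ± 0.0628 and 0.194 ± 0.0306 FPKM (SD, n = 3 each). They matched 15, 13 and 5 steps against 18, 21 and 15 steps, 33 against 54 in all, and siCircGigyf2 replicate 3 alone lay far below the others. The log2 difference was -0.07 (SE 0.046), or -0.03 without that library and -0.36 with a pseudocount of 0.1. Igf2bp1, the paralog known as the zipcode-binding protein of beta-actin mRNA, was listed at 0 in all 6 libraries. The Igf2bp genes together summed to 1.39 ± 0.161 FPKM with siCircGigyf2 and 1.91 ± 0.153 FPKM with siNC (SD, n = 3 each), of which Igf2bp3 made up 92.1% to 95.7% and 80.9% to 90.6%.

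Across the 6 members above 0, 4 had groups that did not overlap, 2 higher (Lin28b and Trim71) and 2 lower (Igf2bp2 and Igf2bp3) with siCircGigyf2, where 37.7% of all 17130 genes above 0 had groups that did not overlap. Of the 3 tested members, only Lin28b passed a limma adjusted p of 0.05, where 38.2% of the 11420 genes tested passed, 19.5% higher and 18.7% lower. The members were chosen with this contrast known, so nothing is read from these counts. Whether the replicates were separate cultures is not stated, so the p-values below reflect the spread among these libraries alone, and that spread may be technical.

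The genes whose profile over the 6 libraries was closest to that of Lin28b, by Euclidean distance of centred log2(FPKM + 1), were Bbx, Cpeb4, Sccpdh, Prdx4 and Clec14a, at distances of 0.0397 to 0.0568. Bbx, an HMG-box protein gene, averaged 31.2 ± 0.935 and 24.1 ± 0.377 FPKM with siCircGigyf2 and siNC (SD, n = 3 each). Cpeb4, an activator of cytoplasmic polyadenylation, averaged 131 ± 5.31 and 98.9 ± 1.496 FPKM. Prdx4, a peroxiredoxin of the endoplasmic reticulum, averaged 189 ± 4.42 and 144 ± 4.09 FPKM. All 5 profiles lay higher in every siCircGigyf2 library than in every siNC library, as Lin28b did. That follows from choosing them by closeness to Lin28b in these same libraries and is no separate result.

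Genes that make, mark and destroy let-7 changed in both directions. Of 19 genes listed, 18 were tested. Of these, 4 rose (Ago2, Setd7, Papd4 and Xpo5), 2 fell (Mettl1 and Drosha) and 12 did not pass, with a median log2 difference of -0.026 (0.00035 over all genes tested). That is 33.3% called, where 38.2% of all genes tested were called. These genes were listed with earlier results of these data known, so nothing is read from that share. Ago2, the slicer Argonaute that loads mature let-7, averaged 69.3 ± 1.10 FPKM with siCircGigyf2 and 55.6 ± 0.597 FPKM with siNC (SD, n = 3 each) and rose by 0.31 (limma adjusted p = 8.08e-05). Setd7, which methylates LIN28A, averaged 19.9 ± 0.252 and 16.03 ± 0.508 FPKM (log2 difference 0.30, limma adjusted p = 0.000439). Papd4, a terminal nucleotidyltransferase also known as TUT2 that adds single uridines to some let-7 precursors, averaged 42.0 ± 2.51 and 35.1 ± 1.73 FPKM (0.25, limma adjusted p = 0.00458). Drosha, the nuclease that releases the hairpin, averaged 41.2 ± 1.45 and 45.8 ± 0.722 FPKM and fell by 0.15 (limma adjusted p = 0.00855).

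The exporter gene Xpo5 and the methyltransferase gene Mettl1, named after their values were seen, had log2 differences of 0.22 and -0.28 (limma adjusted p = 0.00983 and 0.0122). The enzymes through which LIN28A blocks let-7, also named with the results known, did not pass the test. Zcchc11 and Zcchc6 (TUT4 and TUT7), which add the uridine tail, had log2 differences of -0.027 and -0.029, and Dis3l2, which degrades the tailed precursor, -0.13 (limma adjusted p = 0.686, 0.632 and 0.0954). Dicer1, which cuts the precursor and is itself a let-7 target, was at -0.028 (limma adjusted p = 0.654).

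**Figure D3:**
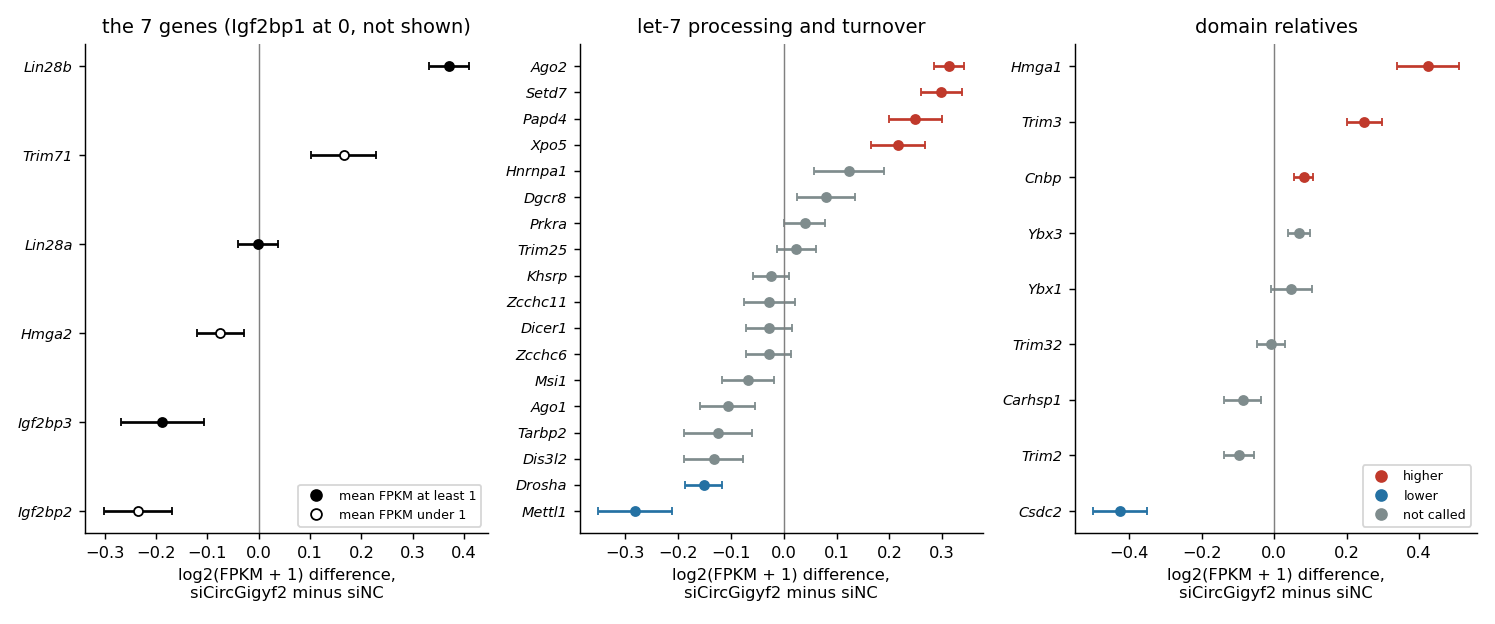
Difference in log2(FPKM + 1), siCircGigyf2 minus siNC, with its SE, for the members above 0 (left), the let-7 processing and turnover genes (middle) and the relatives by protein domain (right). Filled black points are members tested across genes and open points members under 1 FPKM. The right panel draws 9 of the 11 tested relatives, of which Csdc2 lies lowest and Hmga1 highest.

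The let-7 RNAs themselves could not be followed in these libraries. All 13 hairpin rows (11 of let-7, Mir98 and Mir202) were listed at 0 in all 6 libraries, and libraries of this kind do not capture mature microRNAs. Among hosts, Wdr82, whose transcript holds the let-7g hairpin, averaged 15.5 ± 0.454 and 12.9 ± 0.413 FPKM (SD, n = 3 each) and rose by 0.25 (limma adjusted p = 0.00189). Huwe1, which holds let-7f-2 and miR-98, did not pass (log2 difference -0.040, limma adjusted p = 0.276).

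Genes of proteins that share a domain with the members also changed in both directions. They were likewise listed with earlier results known, so nothing is read from their share called. Of 12 listed, 11 were tested, with 3 higher, 2 lower and 6 not passing (45.5% called, against 38.2% of all genes tested), and a median log2 difference of -0.0092, or 0.047 without siNC replicate 2. Csdc2, a small protein with the cold-shock domain of LIN28, averaged 5.88 ± 0.0438 FPKM with siCircGigyf2 and 8.28 ± 0.985 FPKM with siNC (SD, n = 3 each) and fell by 0.43 (limma adjusted p = 0.00221). Ybx1, Ybx3 and Carhsp1, of the same fold, had log2 differences of 0.048, 0.069 and -0.087 that did not pass.

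Hmga1, the paralog of Hmga2 and itself listed as a let-7 target, averaged 46.6 ± 5.57 and 34.4 ± 2.84 FPKM (SD, n = 3 each) and rose by 0.43 (limma adjusted p = 0.00459). Fragments of this sequence can match more than a single locus, so the value is uncertain. Of the relatives of TRIM71 with an NHL domain, Trim3 rose by 0.25 (20.0 ± 1.26 and 16.7 ± 0.419 FPKM, limma adjusted p = 0.00395), whereas Trim2 and Trim32 had log2 differences of -0.097 and -0.0092 that did not pass. Cnbp, a zinc-knuckle protein, was higher by 0.081 (limma adjusted p = 0.0353), a call lost after quantile normalization (0.018, limma adjusted p = 0.631), with the replicate number as a block (0.0657), without the variance trend (0.0986), and without any single library (limma adjusted p from 0.0627 to 0.128).

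Classical let-7 targets beyond the axis changed in both directions. Of 61 listed, 52 were tested, of which 15 rose, 16 fell and 21 did not pass, with a median log2 difference of 0.016 (0.00035 over all genes tested), or 0.042 without siCircGigyf2 replicate 2. That is 59.6% changed, where 38.2% of all genes tested had changed. The list was chosen with earlier results of these data known, so nothing is read from this share. Pbx3, a homeobox cofactor, averaged 13.4 ± 0.455 FPKM with siCircGigyf2 and 8.47 ± 0.226 FPKM with siNC (SD, n = 3 each) and rose by 0.61 (limma adjusted p = 3.7e-05). Bcl2l1, the anti-apoptotic BCL-XL gene, averaged 35.5 ± 2.02 and 25.1 ± 1.65 FPKM and rose by 0.48 (limma adjusted p = 0.000245). Cpeb4 rose by 0.40 (limma adjusted p = 6.45e-05).

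The transcriptional repressor gene E2f6, Rrm2 (a ribonucleotide reductase subunit), Dna2 (a replication nuclease) and Arid3a, named after their values were seen, fell by 0.43, 0.40, 0.38 and 0.36 on the log2 scale (limma adjusted p = 0.000727, 0.000623, 0.00253 and 0.0017). The RAS genes were among the first let-7 targets described in mammals. Nras averaged 32.1 ± 0.526 and 27.1 ± 0.490 FPKM (SD, n = 3 each) and rose by 0.24 (limma adjusted p = 0.000628), and Hras rose by 0.18 (limma adjusted p = 0.0218, but 0.0714 without siCircGigyf2 replicate 3 and 0.076 without siNC replicate 2). The choice of Hras was made with its value in view. Igf1r (the IGF1 receptor), Insr (the insulin receptor) and Irs2 (an adaptor of both) had log2 differences of -0.17, -0.18 and -0.18 (limma adjusted p = 0.00487, 0.00369 and 0.0192), and were also named after their values were seen. The call for Irs2 was lost without siCircGigyf2 replicate 1 or 3 or siNC replicate 3 (limma adjusted p = 0.0601, 0.0561 and 0.0669) and without a filter on low values (0.0521).

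**Figure D4:**
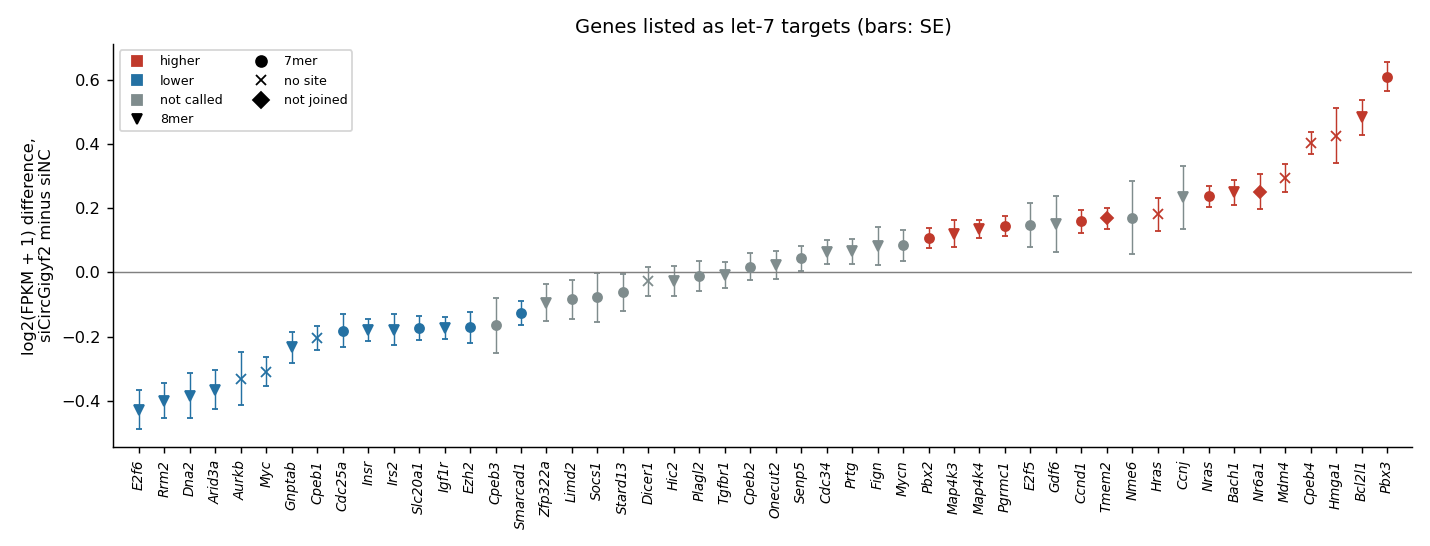
Difference in log2(FPKM + 1), siCircGigyf2 minus siNC, with its SE, for 50 of the 52 tested genes listed as let-7 targets, in order of size, with colour for the limma call and the symbol for the site in the 3′ UTR. The 15 drawn that rose and the 15 drawn that fell both include genes with an 8mer.

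The tested targets were also counted by the site in their 3′ UTR, with no test of the difference between classes. Of the 50 tested targets with a usable annotation, 22 held an 8mer, of which 4 rose and 9 fell, 19 held a 7mer only, of which 5 rose and 4 fell, and 9 held neither, of which 4 rose and 3 fell. The shares called in these classes were 59.1%, 47.4% and 77.8%. Among the genes with neither site were Cpeb4, Hras and Hmga1, which rose, Myc, which fell, and Dicer1, which did not pass. Over all 10414 tested genes with an annotated 3′ UTR, 325 held an 8mer. Of these 67 rose and 53 fell, 36.9% in all, with a median log2 difference of -0.0079. The 1230 genes with a 7mer only had 260 that rose and 230 that fell (39.8%), with a median of 0.0016, and the 8859 genes without a site 1723 and 1711 (38.8%), with a median of -0.0011. The quartiles of the 8mer genes, -0.12 and 0.11, were close to those of genes without a site, -0.13 and 0.12. Genes with a site had longer 3′ UTRs, at a median of 2474 bases for the 8mer class against 835 bases without a site.

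**Figure D5:**
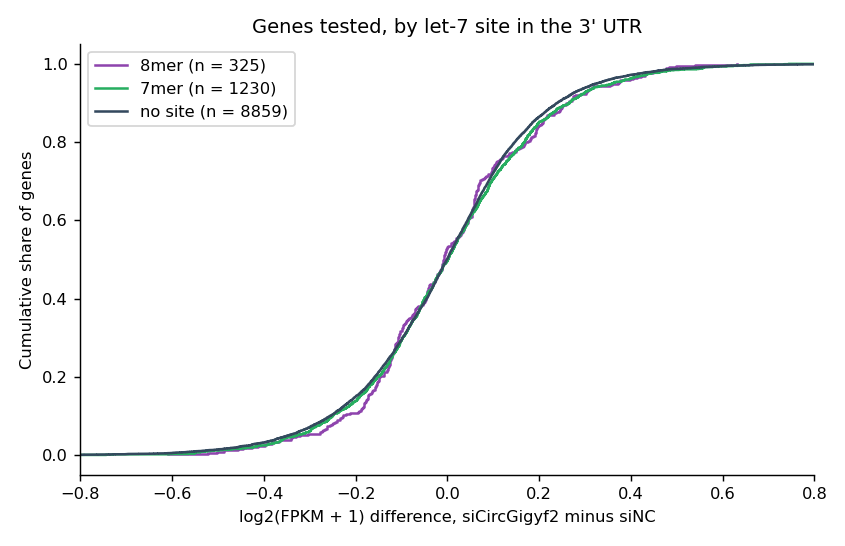
Cumulative share of tested genes by difference in log2(FPKM + 1), siCircGigyf2 minus siNC, for 325 genes with a let-7 8mer, 1230 with a 7mer only and 8859 without a site in the 3′ UTR. The 3 curves cross near 0, with medians of -0.0079, 0.0016 and -0.0011.

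Known clients of the IGF2BP proteins were also mixed. Of 14 listed, 9 were tested, with 3 higher, 3 lower and 3 not passing. That is 66.7% called, where 38.2% of all genes tested were called (19.5% higher and 18.7% lower), and the median log2 difference was 0.024, or -0.0092 without siCircGigyf2 replicate 1. Nothing is read from the share called, since this list too was chosen with earlier results of these data known. Gap43, a growth cone mRNA carried by IGF2BP1, averaged 94.9 ± 3.20 FPKM with siCircGigyf2 and 62.7 ± 1.98 FPKM with siNC (SD, n = 3 each) and rose by 0.59 (limma adjusted p = 1.79e-05), as did Nras. Myc, whose mRNA IGF2BP1 stabilises, averaged 23.5 ± 1.12 and 29.4 ± 1.149 FPKM and fell by 0.31 (limma adjusted p = 0.000889). Mapt, the tau gene, averaged 39.4 ± 0.200 and 43.9 ± 1.27 FPKM and fell by 0.15 (limma adjusted p = 0.00565). The call for Actb (log2 difference 0.12, limma adjusted p = 0.0331), chosen with its value in view, was lost without any library but siCircGigyf2 replicate 2 (limma adjusted p from 0.0579 to 0.12), after quantile normalization (0.0839) and without a filter on low values (0.104). Igf2 and H19, the clients that gave the family its name and its imprinted partner, stayed under 1 FPKM and were not tested. Igf2bp1 itself was listed at 0 in all libraries and Igf2bp3 averaged 1.47 FPKM, so these values are no measure of IGF2BP activity.

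Few genes linked to HMGA2 could be tested. Of 7 listed, 5 were tested, with 3 higher, 1 lower and 1 not passing, where 38.2% of all genes tested were called. As with the other lists, the choice was made with earlier results known, so nothing is read from these counts. The median log2 difference was 0.24, or 0.36 without siNC replicate 2. Cdkn2a, the p16Ink4a and p19Arf locus that HMGA2 represses in neural stem cells, averaged 106 ± 5.87 FPKM with siCircGigyf2 and 80.6 ± 2.55 FPKM with siNC (SD, n = 3 each) and rose by 0.39 (limma adjusted p = 0.000194). Junb rose by 0.39 (42.8 ± 2.23 and 32.4 ± 1.62 FPKM, limma adjusted p = 0.000362). The cyclin gene Ccna2 fell by 0.50 (20.8 ± 0.756 and 29.9 ± 1.25 FPKM, limma adjusted p = 5.93e-05). Twist1 was higher by 0.23 (limma adjusted p = 0.0437), a call lost without a filter on low values (0.102) and without siCircGigyf2 replicate 1 or 3 or siNC replicate 1 or 2 (limma adjusted p from 0.101 to 0.137). Hmga2 itself stood at 0.165 FPKM, so these values are no measure of its activity.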

How the data were processed

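RNA-seq libraries of 6 CAD cell samples, 3 siCircGigyf2 and 3 siNC, were grouped and numbered by sample title. The authors deposited 1 table of FPKM per gene symbol. The build is mm9 per the submitters' processing notes. For the aligner, quantifier, annotation and strand handling, the sources used here give nothing. FPKM are not counts, so no count model was used, and absolute depth is unknown. Relative depth came from the ratio of low values (FPKM under 0.3), which move in steps of a fragment. An exact 0 can be a failed estimate.

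Genes averaging 1 FPKM or more entered a limma fit (version 3.58.1, R 4.3.3) of log2(FPKM + 1) (2 groups, empirical Bayes with a variance trend, two-sided, Benjamini-Hochberg over 11420 genes, threshold 0.05). Differences of members under that limit come from the same fit without the filter. The fit was tested on simulated data with independent normal noise and few changed genes. That setting differs from these data, so it is no check of the p-values here. Members and lists were chosen with earlier results of these data known. The genes named by rule were all members, all tested relatives, and up to 4 called genes of each list with the smallest p. The rule added any called gene past 1.5-fold of each list. It also added the 5 profiles nearest to the member of highest FPKM and to that of largest difference, both Lin28b. Other genes, among them Zcchc11, Zcchc6, Dis3l2, Dicer1, Huwe1, Malsu1 and the markers, were named outside the rule with results known. Lists were described by counts and medians, with no set test. A few list genes count there but are not reported here by name or drawn. Figures used Python 3.11.15 and matplotlib 3.10.9. Alternatives were another pseudocount, filter, scaling or variance model, a replicate block, the longest 3′ UTR, and leaving out each library.

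GENCODE M21 transcripts (GRCm38, not mm9) were joined by symbol for 3′ UTRs, and RefSeq gave the mature let-7 sequences.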

Additional observations from a re-analysis of the deposited data

How the results depend on the processing

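The count of changed genes, 4367, ranged from 3521 to 3923 when single libraries were left out and was 3767 without a filter on low values. Over 6 members, 4 differences moved by more than the spread between replicates under a single setting, the pseudocount of 0.1, which gave -0.36 for Hmga2, -1.02 for Igf2bp2, -0.30 for Igf2bp3 and 0.32 for Trim71 on the log2 scale. A larger value follows from the construction of that scale at low FPKM. The difference of Lin28b lay between 0.34 and 0.40 in all alternatives run. The 5 lists of related genes kept their counts of calls within 1.5 times, with 25 to 28 changed let-7 targets (31 with all libraries) and 4 to 5 changed IGF2BP clients (6) as single libraries were left out. List medians moved with single libraries and with settings. That of the let-7 targets was 0.042 without siCircGigyf2 replicate 2, that of the IGF2BP clients -0.0092 without siCircGigyf2 replicate 1, and those of the domain relatives and of the genes linked to HMGA2 0.047 and 0.36 without siNC replicate 2. The median of the genes linked to HMGA2 was 0.30 with a pseudocount of 0.1 and 0.39 with a filter of 5 FPKM. That of the 8mer class was -0.00072 after quantile normalization, and that of the genes without a site 0.0063 with the filter of 5 FPKM. A fit with replicate as a block passed 3973 genes and 29 let-7 targets. Deviations of same-numbered libraries correlated at 0.163 for replicate 1, -0.0208 for replicate 2 and 0.00253 for replicate 3. They did not deviate together throughout, so the numbers were not taken to pair them. Of the same-numbered pairs, only that of replicate 1 correlated best with each other, while siCircGigyf2 replicate 2 correlated best with siNC replicate 3 (0.131). FPKM of Hmga2 and Igf2bp2 limits what can be seen of them, since each value rests on few steps.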
